A study of Arabidopsis thaliana with 4 samples.

Results

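The transcripts described here are those with a higher signal in the Wassilewskija (Ws) ecotype of Arabidopsis thaliana than in Columbia, in fnr1 mutant and in wild type plants alike. They are 96 of the 22746 probe sets that are not array controls. A probe set was taken when both of its Ws signals were 30 or more and the lower Ws signal was over 1.8 times the higher Columbia signal, after every array had been scaled to a common median. A further 5 probe sets met these thresholds and were set aside by name, those of ACLA-2, CCS, AT1G48750, PDF1.2 and PDF1.2b. In all, 101 probe sets met the thresholds, which is 0.444% of those measured. With the ecotypes exchanged, the same thresholds found 303 probe sets lower in Ws. All 4 arrays of the series entered the choice, so the size of the Ws over Columbia difference is given below as a description and was not tested.

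The series measured RNA of above-ground tissue with 1 Affymetrix array for each of 4 groups, which were fnr1 in Ws, wild type in Ws, fnr1 in Columbia and wild type in Columbia. All plants were 31 days old, were grown on soil with 8 h of light and 16 h of dark at 21 °C, and were taken 4 h into the light. FNR1 encodes a chloroplast ferredoxin-NADP+ oxidoreductase of leaves, which uses reduced ferredoxin to make NADPH for carbon fixation. The labels name neither the mutant alleles nor the number of plants behind an array, so the spread between arrays may be technical. FNR1 was not analysed here, and the genotype labels were taken as given.

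Accessions of Arabidopsis are inbred natural lines that carry many DNA differences, and transcript levels of a part of their genes differ between them in a heritable way. Such a difference can arise at the gene itself, through its promoter, copy number or structure, or through regulators elsewhere in the genome. Columbia is the accession of the reference genome, on which the probes of this array were designed.

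As deposited, the median signal was 27.5 in fnr1 Ws and 28.9 in wild type Ws, against 27.7 in fnr1 Columbia and 22.1 in wild type Columbia, and scaling multiplied the last of these arrays by 1.25. Every signal below is on the scaled intensity scale, on which each array has a median of 27.6. Of 11 leaf markers, 3 had a probe set paired with 1 gene (RCA, LHCB4.1 and LHCB4.2), and their summed signal was 17050 in fnr1 Ws and 17120 in wild type Ws, against 20390 in fnr1 Columbia and 21500 in wild type Columbia. The 2 measured of 9 root markers, EXPA7 and EXPA18, had summed signals of 8.97 and 19.8 in fnr1 and wild type Ws, against 7.87 and 3.72 in fnr1 and wild type Columbia. Their single signals were at most 10.94 on any array and so have little precision. EXPA7 was higher in Ws in both genotypes, whereas EXPA18 was lower in Ws in fnr1 and higher in wild type. The 1 measured pollen marker of 3 had at most 10.5 on any array, and no floral or seed marker of the lists had such a probe set. Of the leaf markers, RCA and LHCB4.1 had log2 differences near 0 and LHCB4.2 was lower in Ws, with 2931 in fnr1 and 3138 in wild type Ws, against 6285 in fnr1 and 6728 in wild type Columbia. The part of these marker differences in the results below was not tested.

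**Figure D1:**
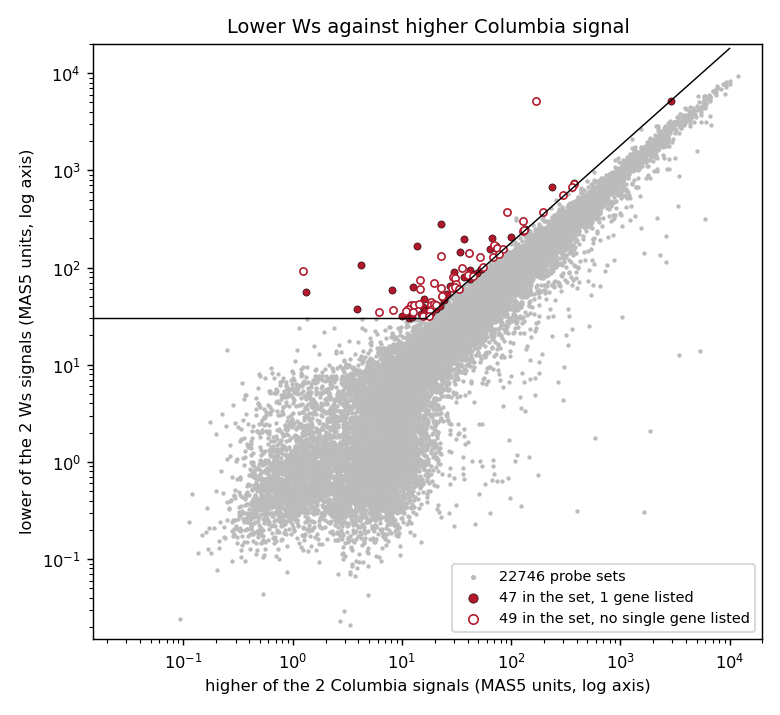
Lower of the 2 Ws signals (y axis) against the higher of the 2 Columbia signals (x axis), both in MAS5 units on log axes, for all 22746 probe sets. Filled red points are the 47 probe sets in the set with 1 listed gene, open red points the other 49, and the black lines are the thresholds of 30 and 1.8; grey points above the lines are those set aside by name. Most red points sit just above the sloping line, and few lie far above it.

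The 96 probe sets fell into a long tail of large differences and a majority of modest ones. The ratio of the lower Ws to the higher Columbia signal ran from 1.804 to 73.1 with a median of 2.21. It was over 10 for 6 probe sets, between 5 and 10 for 6, between 3 and 5 for 15, between 2 and 3 for 39 and at most 2 for 30. Some of the ratios over 10 rest on dim Columbia signals and have little precision. The ratio of 73.1 is one of these, with a higher Columbia signal of 1.25. The lower Ws signal ranged from 30.3 to 5227 with a median of 76.0, and the higher Columbia signal from 1.25 to 2887 with a median of 28.1. In tissue RNA, fewer cells of a type and less RNA per cell cannot be told apart. The Ws over Columbia ratio in fnr1 and that in wild type were within 1.5-fold of each other for 69 of the 96, and the ratio was the larger one in fnr1 for 47 and in wild type for 49. The rule asks for the difference in both genotypes, so this likeness is in part built into the choice. The difference between ecotypes in the genotype effect, on the log2 scale, was at least 1.5-fold above 0 for 7.29% and below 0 for 9.38% of the set, against 7.57% and 9.17% of all probe sets tested for a genotype effect.

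The thresholds cut through a continuum. Just inside the ratio of 1.8 lay AT3G52390 and the plastid gene rps4, both at 1.81, and a probe set with no listed gene at 1.804. Just outside it lay AT3G62860 at 1.7997, OSB1 at 1.795 and AT1G04770 at 1.79. AT3G62860 had 57.0 in fnr1 Ws and 47.2 in wild type Ws, against 25.1 in fnr1 Columbia and 26.2 in wild type Columbia. AT3G52390 had 77.8 in fnr1 Ws and 76.9 in wild type Ws, against 42.2 in fnr1 Columbia and 42.5 in wild type Columbia. At the floor of 30 for the lower Ws signal, AT1G52770 with 30.3 and AT3G21020 with 31.2 were the nearest named genes inside. AT5G24240, with 29.8 and 36.0 in fnr1 and wild type Ws against 0.57 and 1.36 in fnr1 and wild type Columbia, narrowly missed that floor. AT4G19430 missed it too, with 29.8 and 29.3 in fnr1 and wild type Ws against 4.31 and 0.905 in fnr1 and wild type Columbia. Ratios over Columbia signals as dim as these have little precision and are not given for these genes.

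A single gene was listed for 47 of the 96 probe sets, several genes for 7 and none for 42. The share with 1 gene, 49.0%, was close to the 52.3% among the 10577 probe sets with both Ws signals of 30 or more. Probe sets whose names mark probes shared by more than 1 transcript (suffix _s_at) made up 10.4% of the set and 3.47% of those 10577. Probe sets listed for several genes made up 7.29% of the set and 2.07% of those 10577. For the 10 probe sets with the suffix _s_at, and 1 with the suffix _x_at, the signal may come from more than 1 gene. The 47 genes were 46 protein-coding genes and 1 pseudogene, AT3G21020. Gene length was 1883 bp at the median, with a range of 114 to 9422 bp, against 2394 bp for probe sets with 1 gene and both Ws signals of 30 or more. The gene table used gave a symbol for 7 of the 47 and a synonym with a known role for AT1G78790. The others are given by locus name with no role.

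**Figure D2:**
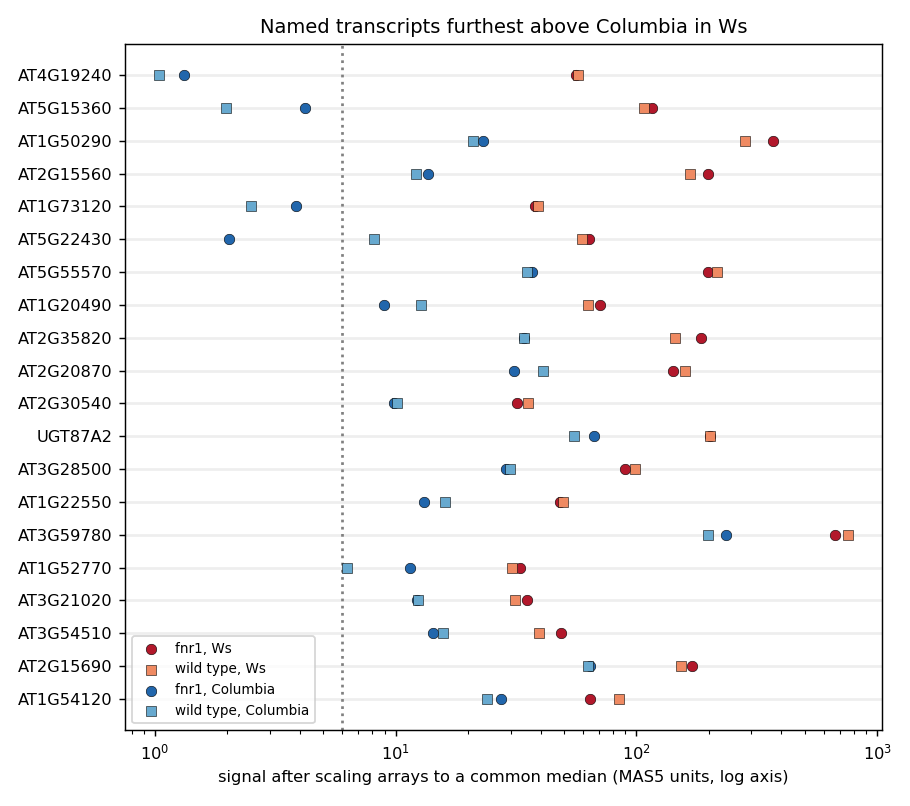
Signal on each of the 4 arrays (x axis, MAS5 units after median scaling, log axis) for the 20 named transcripts with the highest ratio of lower Ws to higher Columbia signal, highest at the top. Red and orange symbols are fnr1 and wild type Ws, dark and light blue symbols are fnr1 and wild type Columbia, and the dotted line marks a signal of 6.0; in every row both Ws symbols lie to the right of both Columbia symbols, and 4 rows have a Columbia symbol left of the dotted line.

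Some of the named genes with the highest ratios had very low signals in Columbia. AT4G19240 had signals of 55.8 in fnr1 Ws and 57.2 in wild type Ws, against 1.32 in fnr1 Columbia and 1.04 in wild type Columbia. AT5G15360 had 116 in fnr1 Ws and 107 in wild type Ws, against 4.2 in fnr1 Columbia and 1.97 in wild type Columbia. AT1G73120 had 37.9 in fnr1 Ws and 38.8 in wild type Ws, against 3.87 in fnr1 Columbia and 2.5 in wild type Columbia. These 3 genes, with a probe set listed for several genes, were the 4 in the set whose Columbia signals both lay in the lowest 25% of their arrays. Since signals of this size have little precision, folds are given as lower bounds, with signals below 6.0, the 25th percentile of all signals, set to that value. By the means of log2 signals, AT5G15360 was then at least 18.5-fold higher in Ws, AT4G19240 at least 9.42-fold and AT1G73120 at least 6.39-fold. AT5G22430 had 63.5 in fnr1 Ws and 59.4 in wild type Ws, against 2.03 in fnr1 Columbia and 8.10 in wild type Columbia, and was at least 8.81-fold higher. Its Ws signals were close together, whereas its Columbia signals, both dim, lay on either side of 6.0.

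Other genes with high ratios had Columbia signals above 6.0 on both arrays. AT1G50290 had 369 in fnr1 Ws and 283 in wild type Ws, against 23.0 in fnr1 Columbia and 21.0 in wild type Columbia, a ratio of lower Ws to higher Columbia signal of 12.4. AT2G15560 had 199 in fnr1 Ws and 166 in wild type Ws, against 13.6 in fnr1 Columbia and 12.1 in wild type Columbia, a ratio of 12.2. AT5G55570 had 199 in fnr1 Ws and 217 in wild type Ws, against 36.8 in fnr1 Columbia and 35.1 in wild type Columbia, a ratio of 5.4. In all 3 genes the genotypes differed far less within each ecotype than the ecotypes did, which the choice by high ratio favours. AT1G20490 (ratio 4.94), AT2G35820 (4.21), AT2G20870 (3.47), AT2G30540 (3.16) and AT3G28500 (3.02) followed, with Ws signals of 31.9 to 186 and Columbia signals of 8.94 to 41.0. AT1G22550 had a ratio of 2.98, AT1G52770 of 2.63, the pseudogene AT3G21020 of 2.52, AT3G54510 of 2.49, AT2G15690 of 2.39 and AT1G54120 of 2.34. In these 6 genes the Ws signals were 30.3 to 169 and the Columbia signals 6.27 to 64.3.

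Several genes in the set had high signals in both ecotypes. AT3G59780 had 668 in fnr1 Ws and 753 in wild type Ws, against 235 in fnr1 Columbia and 198 in wild type Columbia. AT1G72030 had 749 in fnr1 Ws and 756 in wild type Ws, against 378 in fnr1 Columbia and 367 in wild type Columbia. AT1G20070 had 300.4 in fnr1 Ws and 247 in wild type Ws, against 93.2 in fnr1 Columbia and 133 in wild type Columbia. AT1G72030 had nearly equal signals in both genotypes, while the genotypes of AT1G20070 stood further apart in Columbia. The lower Ws signal was 100 or more for 34 of the 96 probe sets, 500 or more for 7 and under 60 for 38.

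Outside the 20 highest ratios and the 8 highest signals, 18 genes with no symbol or listed role had ratios of 1.81 to 2.31, with a median of 2.02, lower Ws signals of 35.4 to 167 and higher Columbia signals of 16.4 to 72.3. Above a ratio of 2 among these 18 were AT3G60980, AT3G52950, AT1G02300, AT3G49310, AT5G58575, AT5G59000, AT2G26360, AT4G22280 and AT2G01400. AT3G60980 had 175 in fnr1 Ws and 167 in wild type Ws, against 63.3 in fnr1 Columbia and 72.3 in wild type Columbia. AT3G52950 had 160 in fnr1 Ws and 172 in wild type Ws, against 69.9 in fnr1 Columbia and 72.0 in wild type Columbia. AT1G02300 had 93.7 in fnr1 Ws and 97.3 in wild type Ws, against 42.5 in fnr1 Columbia and 36.1 in wild type Columbia. These 3 genes were the highest in ratio of the 18 and had even signals within each ecotype. Below a ratio of 2 among them were AT5G50335, AT5G49610, AT5G52070, AT1G52000, AT2G22080, AT2G39130, AT1G80170, AT5G47250 and AT3G52390. In some of these the arrays of 1 ecotype stood far apart. AT1G80170 was even, with 38.5 in fnr1 Ws and 37.7 in wild type Ws, against 17.1 in fnr1 Columbia and 20.7 in wild type Columbia. AT5G50335 was uneven in both ecotypes, with 37.0 in fnr1 Ws and 74.8 in wild type Ws, against 19.2 in fnr1 Columbia and 10.7 in wild type Columbia.

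The probe set with the widest gap at a high signal has no gene in the annotation used. Probe set 263174_at had 5175 in fnr1 Ws and 5634 in wild type Ws, against 160 in fnr1 Columbia and 169 in wild type Columbia, a ratio of 30.6. It lay above 99.8% of the probe sets of each Ws array. The probe set with the highest ratio of all, 73.1, is listed for 2 genes and is therefore not named here. Its signals were 106 in fnr1 Ws and 91.4 in wild type Ws, against 0.37 in fnr1 Columbia and 1.25 in wild type Columbia, which is at least 16.4-fold by the bound above. The 49 probe sets without a single listed gene had a median ratio of 2.21 and a median lower Ws signal of 75.1, close to the medians of the whole set.

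**Figure D3:**
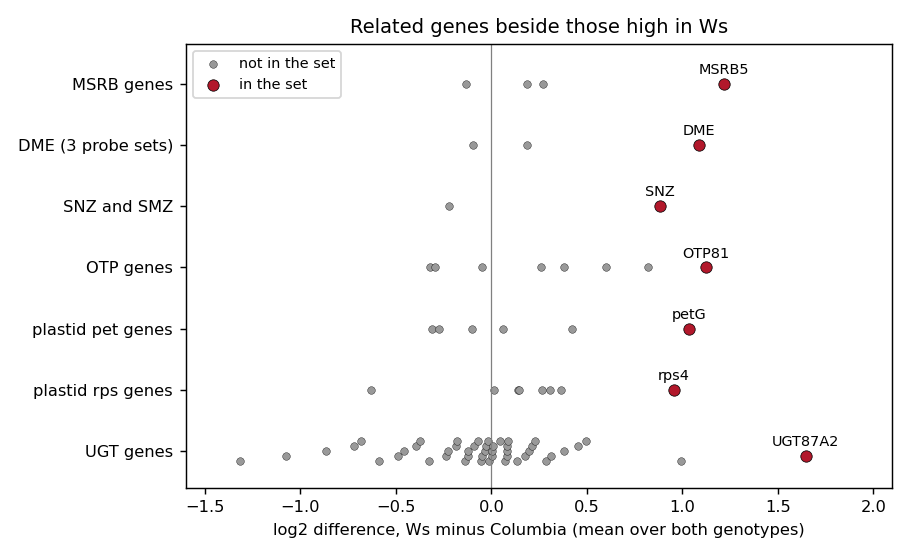
Log2 difference, Ws minus Columbia, as the mean over both genotypes (x axis) for probe sets of related genes, 1 row per family. Red points are probe sets in the set and grey points the other measured probe sets of that family; the red point is the furthest right in every row, at 0.88 to 1.65, and the choice of the set favours this.

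For the genes with a known role, related genes were measured beside them, from families picked by symbol after the set was known. Differences in this and the next 2 paragraphs are log2(signal + 6.0), Ws minus Columbia, averaged over both genotypes, and the median over all 22746 probe sets was 0.03. UGT87A2 belongs to the UDP-glycosyltransferases, which attach sugars to hormones and other small molecules, and in Arabidopsis it is known for an effect on flowering time. It had 202 in fnr1 Ws and 201 in wild type Ws, against 66.4 in fnr1 Columbia and 54.8 in wild type Columbia, a difference of 1.65. AT2G30150, which lies directly beside UGT87A2, has no UGT symbol in the gene table used. Its signals were 114.5 in fnr1 Ws and 107.4 in wild type Ws, against 116.1 in fnr1 Columbia and 117.2 in wild type Columbia. The difference was -0.07. The 47 measured genes with a UGT symbol had a median difference of -0.03, and 21 of them were above 0. Next below UGT87A2 came UGT85A7 at 0.995, with signals of 13.5 and 20.1 in fnr1 and wild type Ws against 5.99 and 4.70 in fnr1 and wild type Columbia. Its Ws signals were below the floor of 30.

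MSRB5 encodes a methionine sulfoxide reductase, an enzyme that repairs oxidised methionine in proteins. It had 149 in fnr1 Ws and 207 in wild type Ws, against 66.3 in fnr1 Columbia and 78.5 in wild type Columbia, a difference of 1.22. Its relatives MSRB3 and MSRB6, whose locus numbers place them close by on chromosome 4, had differences of 0.27 and 0.19, and MSRB9 had -0.13. SNZ (SCHNARCHZAPFEN) encodes an AP2-type transcription factor that represses flowering and is a target of miR172. It had 83.3 in fnr1 Ws and 90.0 in wild type Ws, against 44.4 in fnr1 Columbia and 43.9 in wild type Columbia, a difference of 0.88. Its close relative SMZ had signals of at most 9.61 on every array and a difference of -0.22.

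DME (DEMETER) encodes a DNA glycosylase that removes methylated cytosine and is known for gene imprinting in the seed. Of 3 probe sets listed for it, 1 is in the set, with 33.5 in fnr1 Ws and 38.0 in wild type Ws, against 14.8 in fnr1 Columbia and 12.5 in wild type Columbia, a difference of 1.09. The other 2 had differences of 0.19 and -0.09, with signals of 52.5 to 63.0 and 11 to 15.9 over the 4 arrays. The probe sets of DME therefore disagree, and the gene table lists 2 older locus names, AT5G04570 and AT5G04580, under DME. OTP81 encodes a pentatricopeptide repeat protein that takes part in RNA editing of chloroplast transcripts. It had 34.3 in fnr1 Ws and 43.0 in wild type Ws, against 18.4 in fnr1 Columbia and 11 in wild type Columbia, a difference of 1.12. The 8 measured OTP genes, which act in organelle RNA processing, ran from -0.32 to 1.12, and 5 were above 0. AT1G78790, listed as MHF2, a histone-fold partner of the DNA repair helicase FANCM, had 57.0 in fnr1 Ws and 52.9 in wild type Ws, against 24.8 in fnr1 Columbia and 26.1 in wild type Columbia.

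Of the plastid genome, 2 genes are in the set. The gene petG encodes a small subunit of the cytochrome b6f complex, which carries electrons between the photosystems. Its signals were 211 in fnr1 Ws and 208 in wild type Ws, against 99.97 in fnr1 Columbia and 98.3 in wild type Columbia, a log2 difference of 1.03. The other plastid pet genes ran from -0.31 for petN to 0.42 for petL. The gene rps4 encodes a protein of the small subunit of the plastid ribosome, and had 5227 in fnr1 Ws and 5828 in wild type Ws, against 2804 in fnr1 Columbia and 2887 in wild type Columbia, a log2 difference of 0.95. The other 7 measured plastid rps genes ran from -0.63 for rps14 to 0.36 for rps18. Over 69 plastid probe sets the median log2 difference was 0.15, and 46 were above 0. Next after petG and rps4 came psbA, which encodes the D1 protein of photosystem II, with 0.84, just under the ratio threshold at 1.72.

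**Figure D4:**
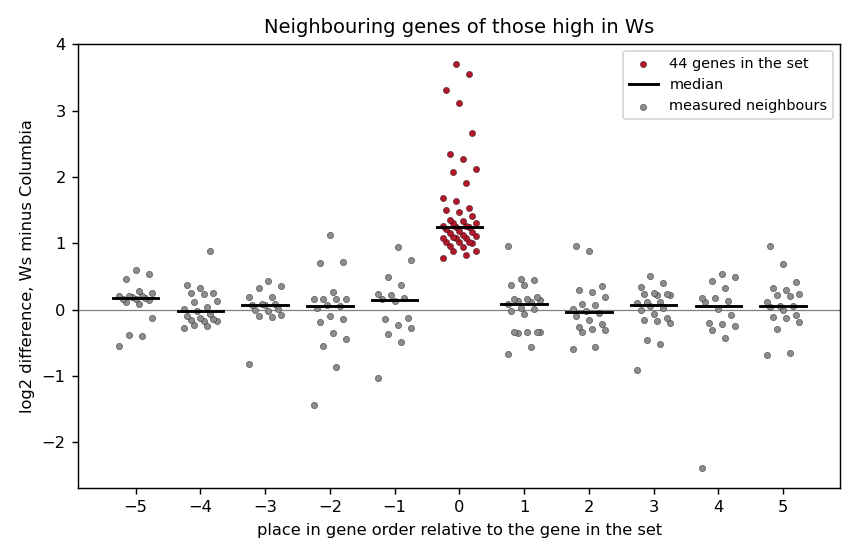
Log2 difference, Ws minus Columbia, averaged over both genotypes (y axis), by place in gene order relative to each gene of the set (x axis). Red points at place 0 are the 44 nuclear protein-coding genes of the set. Grey points are neighbours with a probe set of their own, and black bars are medians. The neighbours' medians lie between -0.04 and 0.18, against 1.25 at place 0, where the genes were chosen for this difference. The neighbours had no floor on signal, and differences of dim ones are understated.

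The 47 genes listed singly for a probe set of the set were spread over the genome. The other 49 probe sets were not placed, so any that lie close together or beside these genes were not seen. On chromosomes 1 to 5 there were 12, 12, 8, 3 and 10 of the 47, and 2 were in the plastid genome. Chromosome 2 held 25.5% of the set and 14.8% of the 5532 probe sets with 1 gene and both Ws signals of 30 or more, while chromosome 4 held 6.38% against 14.3%. These shares rest on few genes and were not tested. No pair of the 44 nuclear protein-coding genes among them had 5 or fewer protein-coding genes between them in the TAIR10.1 gene order. The nearest pair, AT2G15560 and AT2G15690, had 9 between them, and AT2G39130 and SNZ had 10.

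Of the genes directly beside one of the set, 39 had a probe set listed for that gene alone, for 27 genes of the set. None of the 39 is in the set. Their median log2 difference was 0.12, against 0.03 over the 12262 genes of the nuclear genome with a probe set. At least 2-fold higher in Ws were 0 of the 39, against 1.07% of those 12262 genes, and 1 of the 39 was at least 2-fold lower, against 2.16% of those genes. Within 5 places to either side, 192 genes were measured, of which 1 (0.521%) was at least 2-fold higher and 3 (1.56%) at least 2-fold lower in Ws. These counts are too small to set the neighbours apart from other genes, and no test was made. The 1 higher gene was AT5G55560, 2 places from AT5G55570, with 27.4 and 23.6 in fnr1 and wild type Ws against 9.13 and 7.70 in fnr1 and wild type Columbia. On the other side of AT5G55570, AT5G55580 had 74.8 and 105 in fnr1 and wild type Ws against 44.0 and 41.5 in fnr1 and wild type Columbia, a log2 difference of 0.96. AT3G28540, 4 places from AT3G28500, was lower in Ws, with 5.84 and 8.55 in fnr1 and wild type Ws against 85.1 and 45.1 in fnr1 and wild type Columbia.

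**Figure D5:**
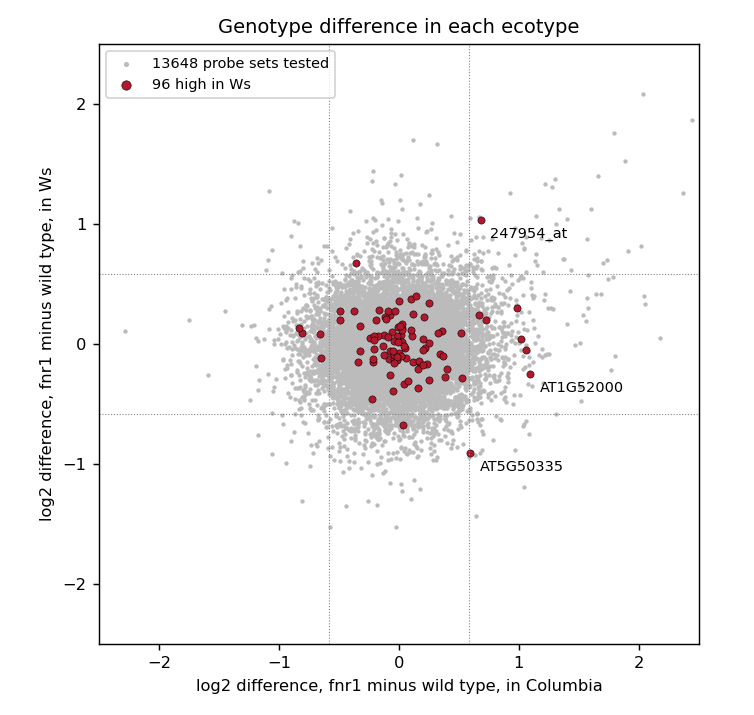
Log2 difference, fnr1 minus wild type, in Ws (y axis) against that in Columbia (x axis), on log2(signal + 6.0). Red points are the 96 probe sets high in Ws, grey points the 13648 probe sets tested (5 of them lie outside the axes), and dotted lines mark 1.5-fold; the red points cluster around 0 in both directions, with 247954_at above and to the right of the dotted lines and AT5G50335 and AT1G52000 at the lower right.

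The genotype comparison asks whether the transcripts high in Ws also differ between fnr1 and wild type plants, and crosses the ecotype contrast that chose them. None of them was called. With limma, with ecotype as an additive term and Benjamini-Hochberg adjustment at 0.05 over all probe sets tested, 0 of the 95 probe sets that passed the filter on mean signal differed between fnr1 and wild type (2 arrays against 2), with a lowest adjusted p of 0.175. AT1G73120 did not pass the filter. Over all 13648 probe sets tested, 25 were called, or 0.183%, of which 22 (0.161%) were higher and 3 (0.0220%) lower in fnr1. With so small a share, having no call among 95 does not set these probe sets apart from the others. At an unadjusted p under 0.05, 2 of the 95 differed, against 6.67% of all probe sets tested. The rule needs both Ws signals above both Columbia signals, which a large genotype difference makes harder to meet, so these counts are not wholly independent of the choice.

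The median genotype difference of the set was near 0 in both ecotypes. The median log2 difference, fnr1 minus wild type, was 0.02 in Ws and 0.01 in Columbia over the 96, against -0.04 in Ws and -0.02 in Columbia over all probe sets tested. In Ws, 50 of the 96 were higher and 46 lower in fnr1, and in Columbia 49 were higher and 47 lower. At least 1.5-fold apart in Ws were 4 of the 96 (4.17%), against 5.70% of all probe sets tested. In Columbia they were 12 of the 96 (12.5%), a larger share than the 8.24% of all probe sets tested. Most of these 12 had both Columbia signals below the array median of 27.6, and the rule favours low Columbia signals. Dim signals have little precision, and the larger share was not tested. The size of the difference, without its sign, had a median of 0.13 in Ws and 0.16 in Columbia, against 0.16 in Ws and 0.20 in Columbia for the 10577 probe sets with both Ws signals of 30 or more. One probe set of the 96, 247954_at, which has no listed gene, was over 1.5-fold higher in fnr1 plants of both ecotypes, and none was lower by that much in both. It had 146 in fnr1 Ws and 68.3 in wild type Ws, and 31.6 in fnr1 Columbia and 17.4 in wild type Columbia, a fitted log2 difference of 0.86 ± 0.20 (SE, 2 arrays against 2, limma adjusted p = 0.175).

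The named genes below were ranked by the smaller of their genotype differences in the 2 ecotypes, among those with the same sign in both, and none was called. AT5G58575 had 103 in fnr1 and 80.2 in wild type Ws, and 36.8 in fnr1 and 29.9 in wild type Columbia, a fitted log2 difference of 0.29 ± 0.20 (SE, 2 arrays against 2, limma adjusted p = 0.831). AT2G01400 (0.22), AT2G15560 (0.18) and AT5G15360 (0.23) were next on the higher side, with limma adjusted p of 0.920 to 0.925. On the lower side MSRB5 came first by this rank, with a fitted log2 difference of -0.34 ± 0.17 (SE, 2 arrays against 2, limma adjusted p = 0.787). AT2G20870 (-0.25), AT3G49310 (-0.19) and AT2G26360 (-0.19) had limma adjusted p of 0.851 to 0.931. AT1G52000 differed by 1.09 in Columbia, with 52.7 in fnr1 and 21.5 in wild type, and by -0.25 in Ws, with 96.6 in fnr1 and 116 in wild type. Differences within 1 ecotype had 1 array a genotype and were not tested.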

How the data were processed

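RNA of 4 Arabidopsis groups was measured on 1 Affymetrix array each. The authors deposited 1 intensity value for each probe set, on a linear scale, which came from MAS5 per the submitters' processing notes; no version, scaling target or detection call is given in the sources used. The 64 control probe sets of 22810 were left out and each array was multiplied to a common median. For differences, log2(signal + 6.0) was taken, 6.0 being the 25th percentile of the scaled signals, so differences of dim probe sets are understated. The filter kept the 13648 probe sets whose mean log2 signal reached the 40th percentile. They were fitted in limma 3.58.1 (R 4.3.3) with genotype, ecotype and a variance trend, which leaves 1 residual degree of freedom; fnr1 and wild type are thus replicated over ecotypes. The fit was tested on simulated data. The number of arrays limits the precision.

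The annotation listed 13513 probe sets with 1 gene, 503 with several and 8730 not at all; 13436 of the first matched the TAIR10.1 RefSeq gene table by gene ID, and genes were named only from single-gene probe sets. The members and lists were chosen with earlier results of these data known. Named genes were taken up for the highest ratios or signals, or for lying at the thresholds. Others were the highest or lowest by the smaller of their genotype differences in the 2 ecotypes. Full signals are given for a part of these genes, and ratios, ranges or fitted differences for the rest. Any further genes singled out were chosen after their values were seen. The gene table holds no descriptions, so the names of relatives came from symbols. By words in symbols and synonyms, 40 of the 47 genes fell in no functional group, 85.1% against 92.8% of the 5532 single-gene probe sets with both Ws signals of 30 or more. Promoters were not analysed here. Of 28 loci known to vary between accessions, 1 (AOP3) had a probe set with 1 gene, with at most 7.19 on any array. Alternatives varied the scaling, the pseudocount, the filter, the model, the thresholds and the arrays used.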

Additional observations from a re-analysis of the deposited data

Results flagged for a closer look

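AT5G50335 was singled out because its genotype difference ran in opposite directions in the 2 ecotypes by at least 1.5-fold in each. It had signals of 37.0 in fnr1 Ws and 74.8 in wild type Ws, a log2 difference of -0.91, and 19.2 in fnr1 Columbia and 10.7 in wild type Columbia, a log2 difference of 0.59. The Ws minus Columbia difference of these values was -1.50. With 1 array for each genotype and ecotype, this difference was not tested.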

How the results depend on the processing

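The number of probe sets in the set, 96, moved with the thresholds and the scale. It was 155 on the deposited scale, where the dim wild type Columbia array is not corrected and 95 of the 96 are kept, against 102 with a common trimmed mean and 98 with quantile normalization. A ratio over 1.5 gave 234 and a ratio over 2.5 gave 37, and a floor of 15 gave 157 and one of 60 gave 58. Leaving out an array loosens the rule by construction, and gave 199 without fnr1 Ws, 186 without wild type Ws, 229 without fnr1 Columbia and 191 without wild type Columbia. On all 4 scales 92 of the 96 met the thresholds, and AT1G52770, AT2G22080, AT3G52390 and 1 unlisted probe set did not.

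Between fnr1 and wild type, 0 probe sets of the set were called under each alternative that kept all 4 arrays and the ecotype term. The lowest limma adjusted p was 0.0947, under quantile normalization, and from 1 to 4 had an unadjusted p under 0.05. Without the ecotype term, the ecotype gap that chose the set counts as residual spread. Those runs could hardly call its members, so they add nothing to this result. The count over all probe sets, 25, was 27 on the deposited scale, 33 with quantile normalization, 9 with the trimmed mean, 6 with no variance trend, 0 with no filter, 0 with genotype alone in the model, and 0 to 1 with an array left out, where ecotype is also dropped from the model. The median genotype difference of the set, 0.01 over both ecotypes, was 0.10 on the deposited scale, 0.041 with the trimmed mean, 0.0393 with quantile normalization and 0.0018 with a pseudocount at the 40th percentile. On the deposited scale the median in Ws was -0.06 and that in Columbia 0.28, against 0.02 in Ws and 0.01 in Columbia on the common median. With an array left out, so that 1 ecotype remains, it was 0.0072 to 0.017. The ecotype term already sets fnr1 against wild type within each ecotype, and the labels give no replicate numbers for any other pairing.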
